A study of Solanum lycopersicum with 18 samples.

Results

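The regions described here carry H3K27me3, the trimethylated form of lysine 27 of histone H3, in both replicates of *crel-2* shoot apices and reach well outside the regions that carry it in both replicates of wild type. A wild-type region is an interval that peaks of both wild-type replicates share, and a *crel-2* region is an interval that peaks of both *crel-2* replicates share. A *crel-2* region was taken as partly covered if it shared at least 1 bp with wild-type regions but had under 50% of its bases in them. On chromosomes 1 to 12 this gave 784 of 8019 *crel-2* regions, or 9.78% of all and 12.6% of the 6221 that touch a wild-type region. Of the others, 5437 had at least 50% of their bases in wild-type regions and 1798 touched none. The 784 regions were chosen by the peak positions in all 4 lists, so the share covered by wild-type regions and the number of regions are a description and were not tested.

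The plants were tomato (*Solanum lycopersicum*), and the tissue was the shoot apex with its young expanding leaves, taken 28 days after germination from plants grown on soil under long days. The wild type is the cultivar M82, as the RNA samples of the series name it. The mutant is labelled as a *crel* mutant, and the study's methods give it as *crel-2*, a fast neutron allele in which a deletion removes the first exons of *CRAWLING ELEPHANT* (*CREL*), so that it stands for 1 allele of the gene. ChIP-seq with an H3K27me3 antibody was done in 2 replicates of each genotype, each from pooled apices, and the series holds 18 samples in all. The 4 input libraries, the 3 wild-type and 7 *crel* RNA libraries were not used here.

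H3K27me3 is placed by Polycomb Repressive Complex 2 (PRC2) and marks genes that are kept silent. In plants it commonly lies over the body of a gene, and in well-studied cases it is first placed at a short nucleation site and then spreads outwards over the gene, helped by a subunit of PRC2 that binds the mark already present. CREL belongs to the VERNALIZATION INSENSITIVE 3-LIKE (VIL) proteins, which carry a PHD finger and associate with PRC2. Their best-known role in *Arabidopsis thaliana* is at the flowering repressor gene *FLC*. There the related VIN3 and VRN5 take part in the placing of H3K27me3 at the nucleation site in response to prolonged cold.

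The deposited lists give where each peak starts and ends, and neither its height nor a score. On chromosomes 1 to 12 they held 17718 and 16098 peaks in wild-type replicates 1 and 2, against 8734 and 8914 in *crel-2* replicates 1 and 2. The median peak was wider in *crel-2*, at 2641 bp and 2823 bp, than in wild type, at 1862 bp and 2055 bp. The depth behind a peak is not known from these lists, so a missing peak shows only that the region did not pass the authors' peak calling. The lists also do not say whether a region had more of the mark or was only called as 1 wide peak where another list broke it into several. All positions are on build SL2.40, whose sequence names the lists carry. No annotation or sequence of that build was used, so the genes at these regions are not named.

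The partly covered regions were mid-sized. Their median width was 3444 bp, from 136 bp to 27853 bp, and 42 were wider than 10 kb and 42 narrower than 1000 bp. The median was 4271 bp for *crel-2* regions mostly covered by wild-type regions and 709.5 bp for those that touched none. By width class, 21.9% of the *crel-2* regions from 2000 to under 4000 bp that touched wild type were partly covered. This fell to 4.34% below 1000 bp and 5.41% at 8000 bp or more. The covered share is taken over a region's own width, so part of this dependence on width follows from the choice. Together the 784 regions covered 3357 kb, which is 8.65% of the 38819 kb in all *crel-2* regions.

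Within a partly covered region the wild-type share was a median of 31.5% of the bases, from 0.395% to 49.98%. The overlap itself had a median of 850 bp and was under 100 bp in 28 regions. The wild-type regions touched were narrow. The 951 of them had a median whole width of 795 bp. Mostly covered *crel-2* regions touched 5797, with a median of 4230 bp, and all 15216 wild-type regions had a median of 2003 bp. A narrow wild-type region cannot fill much of a *crel-2* region, so part of this difference follows from the choice. The 2 regions nearest below the threshold had 49.98% (chromosome 4, 54829802 to 54832356) and 49.96% (chromosome 8, 53298561 to 53300992) of their bases in wild-type regions. The nearest above it had 50% (chromosome 4, 30295555 to 30296460) and 50.02% (chromosome 9, 7248742 to 7264800).

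Extension was on both sides of the wild-type mark in most cases, with any length of at least 1 bp counted as a side. Where both sides were extended, the shorter side had a 10th percentile of 106 bp and went down to 4 bp. In 683 of 784 regions, or 87.1% (95% Wilson interval 84.6 to 89.3, which covers counting error alone and takes regions as independent), *crel-2* H3K27me3 reached past the outermost wild-type region at both edges. The same held in the reverse direction, where 551 of the 655 wild-type regions with under 50% of their bases in *crel-2* regions, or 84.1% (81.1 to 86.7), reached past them at both edges. The side of extension was not measured for the mostly covered *crel-2* regions. Among the 784 *crel-2* regions, H3K27me3 reached past on 1 side only in 98, or 12.5% (10.4 to 15.0). Of these, 45 were extended to the lower and 53 to the higher coordinates. This share rested on both wild-type lists and was 19.4% without wild-type replicate 1 and 21.1% without wild-type replicate 2. In the other 3 regions, all on chromosome 1, the bases outside wild-type regions lay between them. A peak of 1 wild-type replicate held all of these bases at 4255299 to 4256380 and at 9376649 to 9377420. At 75318061 to 75326272 single-replicate peaks held 25.7% of them. In 684 regions the wild-type regions lay wholly inside the *crel-2* region. In 97 a wild-type region ran on past 1 edge, and in 3 past both edges. For the 98 regions extended on 1 side, the wild-type region ran past the opposite edge by a median of 210 bp, with 1 of them ending flush, while the extension had a median of 960.5 bp. In 23 of the 98 the wild-type region ran past the opposite edge by more than the length of the extension.

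The length of the extension was similar on either side. The 784 regions had 2307 kb outside wild-type regions, of which 41.6% lay on the side of lower coordinates, 43.7% on that of higher coordinates and 14.7% between wild-type regions. Per region the outside bases had a median of 2363 bp (interquartile range 1460.5 to 3622.5 bp), from 118 bp to 19504 bp. The lower side had a median of 984 bp and the higher side 1010.5 bp. The longer part was on the higher side in 411 regions and on the lower side in 370, and 3 had no part on either side. Relative to the chromosome, with the end of its last peak taken as its end, the longer part pointed to the middle in 389 regions and to the chromosome end in 392. No direction along the chromosome was favoured by more than the counting error of these shares. Single regions were less even. Among those extended on both sides, the longer side was a median of 2.31 times the shorter, with medians of 1586 bp and 654 bp, and in 262 of 683 regions it was at least 3 times as long.

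**Figure D1:**
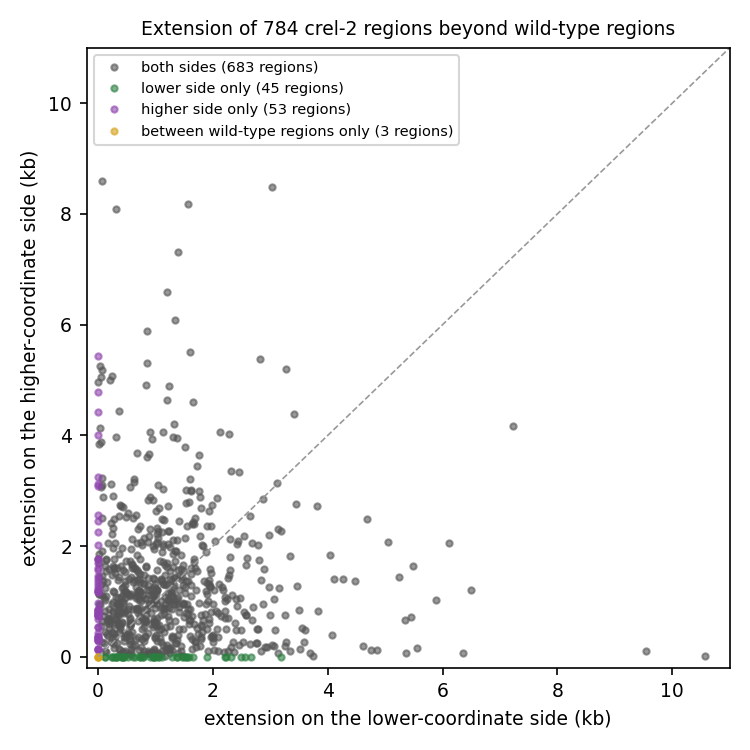
Length by which each of the 784 *crel-2* regions reached past the outermost wild-type region, on the side of lower coordinates (x axis, kb) and on the side of higher coordinates (y axis, kb). Each point is a region, colours give the side or sides extended, the dashed line marks equal lengths, and most points lie below 2 kb on both axes with 411 above and 370 below the line.

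Bridging of gaps between wild-type regions was less common than extension at the edges. A single wild-type region was touched in 656 of the 784 regions, 2 in 101, 3 in 16, 4 in 10 and 5 in 1. These counts were not made for the mostly covered regions. The 128 regions that joined 2 or more wild-type regions were wider, at a median of 6794 bp where those with a single one had 3076 bp. Between the wild-type regions they held a median of 1596 bp, from 505 bp to 19077 bp, and this made up a median of 38.5% of their outside bases. At 14.7% of all outside bases, filled gaps were the smaller share of the extension.

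The region with the most outside bases on each chromosome shows the forms that the extension took. The widest filled gap lay on chromosome 1 from 1141324 to 1166018, where the *crel-2* peaks spanned 24844 bp in replicate 1 and 24701 bp in replicate 2. In wild type the same stretch had a peak near each end in both replicates, and peaks covered 29.4% of it in replicate 1 and 21.0% in replicate 2. Between them 17337 bp in 1 stretch lay in no wild-type peak, the longest such stretch of all 784 regions. Wild-type replicates had their gaps in the same place here.

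On chromosome 7, from 4694453 to 4706955, the extension was to 1 side almost alone, with 9547 bp on the lower and 101 bp on the higher side. Wild-type peaks began at 4704000 in replicate 1 and at 4703998 in replicate 2, and covered 22.8% and 23.7% of the region. Of the outside bases only 1.07% lay in a single-replicate peak. The start of the wild-type mark was thus placed within 2 bp of itself in the wild-type replicates, and 9545 bp before it were called in both *crel-2* replicates and in neither of wild type. The region is cut from a *crel-2* peak of 25840 bp in replicate 1 that replicate 2 had as separate peaks.

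Chromosome 9 had the widest of the 784 regions, from 60252205 to 60280057. It held 2 wild-type regions that together made up 46.0% of its bases, and it extended 10577 bp to the lower side, 4434 bp between them and 21 bp to the higher side. Both wild-type lists covered it nearly alike, at 47.9% in replicate 1 and 48.0% in replicate 2, and 7.14% of the outside bases had a peak in 1 of the wild-type lists. On chromosome 4, from 53983449 to 53995638, only 667 of 12190 bp were in a wild-type region, with 3036 bp added below and 8487 bp above it. Here the wild-type lists held short peaks only, and covered 14.2% and 16.3% of the region.

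At other regions wild-type replicates disagreed. On chromosome 2, from 29198069 to 29216770, peaks covered 67.6% of the region in wild-type replicate 1 and 37.1% in replicate 2, and 62.6% of the outside bases lay in a peak of 1 of them. On chromosome 5, from 908003 to 928375, it was wild-type replicate 2 that covered more, at 42.0% against 24.0%. Its additional peaks lay scattered across the gap of 15765 bp between the wild-type regions at the ends of the region.

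The remaining chromosomes showed mixed forms. The chromosome 3 region, from 10451695 to 10476625, held 4 wild-type regions with 11486 bp between them, and wild-type cover was 50.2% in replicate 1 and 41.8% in replicate 2. The chromosome 6 region, from 30770471 to 30792942, was covered to 41.5% and 39.6%, and its *crel-2* peak ran on in replicate 2 to a span of 45473 bp. The chromosome 8 region, from 60585611 to 60600157, had additions of 2777, 4420 and 2024 bp below, between and above its 2 wild-type regions. Like all 784 by construction, these regions lie within a single peak of each *crel-2* replicate. On chromosome 10, from 6251563 to 6270746, the added bases lay mostly between (5078 bp) and above (5892 bp) the wild-type regions. On chromosome 11, from 48038905 to 48059316, 8143 of 10683 outside bases lay between 3 wild-type regions. On chromosome 12, from 32261114 to 32273718, 5234 bp lay below, 3307 bp between and 1438 bp above. Wild-type peaks covered 24.0% of that last region in replicate 1 and 26.6% in replicate 2.

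**Figure D2:**
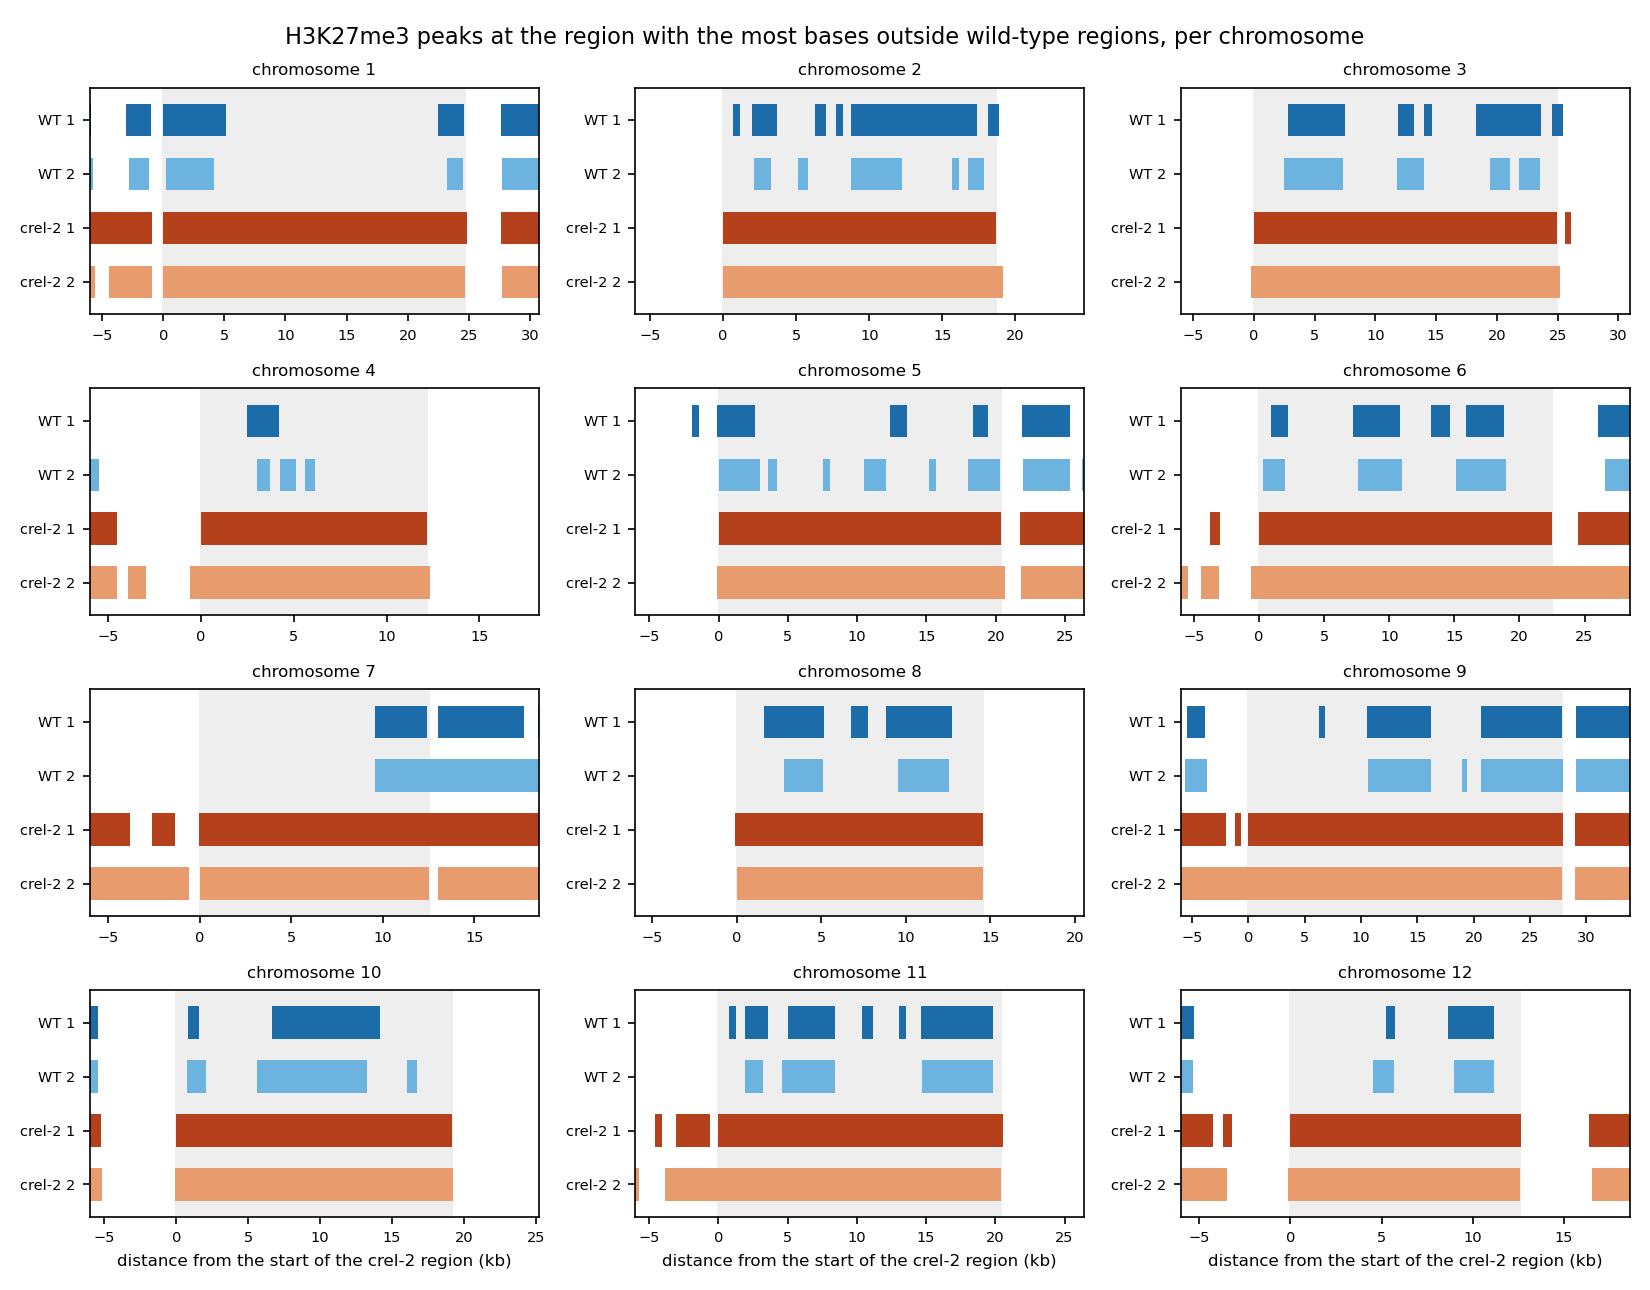
Peaks of the 4 lists at the region with the most outside bases on each of the 12 chromosomes, drawn to scale by distance from the start of the *crel-2* region (x axis, kb), with 6 kb shown on either side. Grey marks the *crel-2* region, each bar is a called peak (WT 1 and WT 2 for the wild-type replicates, crel-2 1 and crel-2 2 for the mutant replicates), and in every panel single *crel-2* peaks run across gaps or flanks that at least 1 wild-type list leaves without a peak.

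Other regions stood out by a long stretch without wild-type peaks or by the number of wild-type regions joined. The third longest stretch without any wild-type peak was 7943 bp on chromosome 6, within 21243442 to 21262758, where 11738 of 11878 outside bases lay between 3 wild-type regions. The most wild-type regions, 5, were joined on chromosome 3 from 15181509 to 15204861, with 49.5% of the bases in them and 10310 bp between. Both regions are gap fillings more than flank extensions.

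The extension of *crel-2* peaks past wild-type peaks was set against the same measure between replicates of 1 genotype. For this, single peak lists were compared, and a peak was counted when it touched the other list with under 50% of its bases in it. Among *crel-2* peaks that touched a wild-type list, 11.9% and 11.3% were so in replicate 1 (against wild-type replicates 1 and 2), and 12.9% and 12.7% in replicate 2. When a *crel-2* list was set against the other *crel-2* list, the share was 4.15% for replicate 1 and 7.17% for replicate 2. All 4 shares between genotypes lay above both shares within *crel-2*. In length the gap was wider, with 2051 to 2618 kb outside wild-type peaks and 271 or 655 kb outside the other *crel-2* replicate. With 2 replicates per genotype the smallest two-sided p of an exact permutation test is 0.333, so no test was made.

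The measure was not particular to the mutant. Wild-type peaks also reached past *crel-2* peaks, in 9.69% to 11.4% of those that touched a *crel-2* list, with 2692 to 3097 kb outside it. Between wild-type replicates the share was 8.41% for replicate 1 and 6.47% for replicate 2, with 1081 kb and 711 kb. For the regions shared by both replicates, 655 of 6735 wild-type regions that touched a *crel-2* region, or 9.73%, had under 50% of their bases in it, against 12.6% in the other direction. These 655 regions had 2455 kb outside *crel-2* regions, slightly more than the 2307 kb by which the 784 *crel-2* regions exceeded wild type. Partly covered regions were thus found in both directions, in similar total length.

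**Figure D3:**
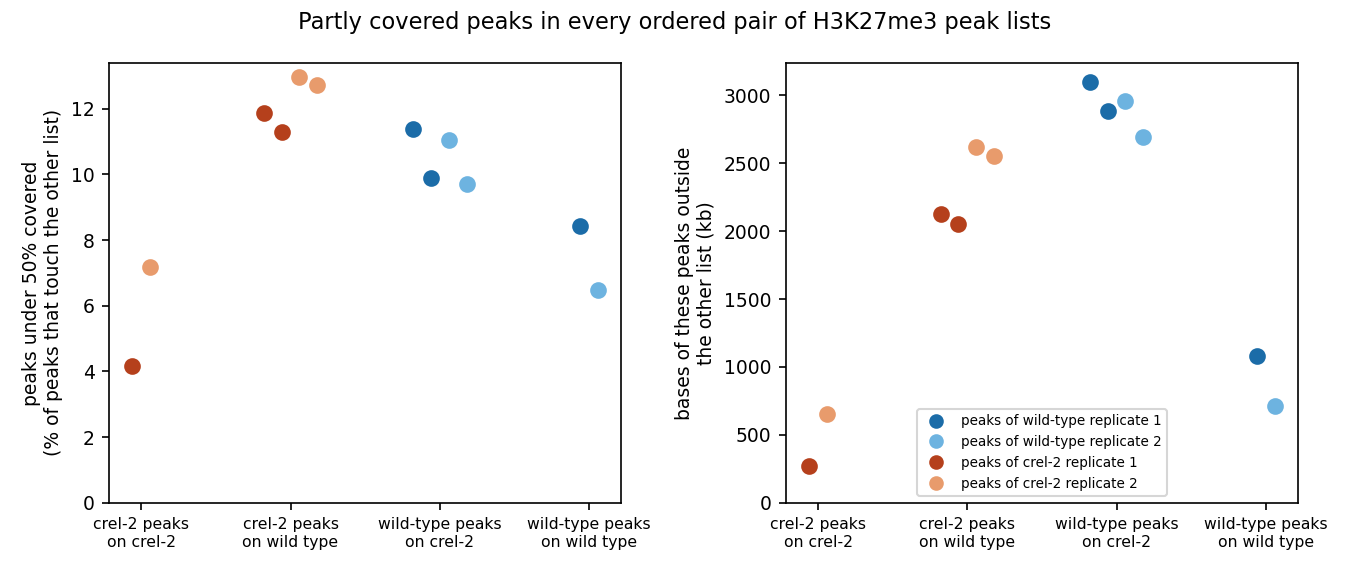
Peaks with under 50% of their bases in another list, as a share of the peaks that touch that list (left, %) and as the bases of these peaks outside it (right, kb), for all 12 ordered pairs of the 4 lists. Each point is 1 pair, its colour gives the list whose peaks were counted, and the pairs between genotypes lie above the pairs of replicates on both axes.

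The stretches outside the wild-type regions were not all free of wild-type peaks, since a peak in 1 replicate alone does not make a region. Of the 2307 kb, 16.8% lay in a peak of wild-type replicate 1 only and 16.0% in a peak of wild-type replicate 2 only. The other 67.2%, 1550 kb, lay in no wild-type peak. Neither replicate supplied most of the single-replicate cover. Replicate 1 had such bases in 636 of the 784 regions, replicate 2 in 611, and both lists in 463.

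Some single-replicate cover arises by construction. Where a wild-type region ends inside a *crel-2* region, 1 of its wild-type peaks ends there and the other usually runs on, so every one of the 784 regions had at least 7 bp of this kind. Of all outside bases, 27.7% lay in single-replicate parts of peaks that also form a touched wild-type region, and 5.05% in separate peaks that touch none of them. Separate peaks were found at 159 regions, or 20.3%. Most of the single-replicate cover was therefore in peaks that also form a wild-type region. Overhang at an outer edge and cover of a gap between wild-type regions were not separated in this measure.

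Per region, single-replicate peaks held a median of 34.1% of the outside bases (interquartile range 20.8 to 54.1%). They held under 10% in 69 regions and at least 90% in 47, and all of them in 35. At least 50% of the outside bases were held in 223 regions, or 28.4% (95% Wilson interval 25.4 to 31.7), beside 48.9% over all 4541 *crel-2* regions that touch wild type and have outside bases. Among the mostly covered *crel-2* regions with outside bases, this was 1996 of 3757, or 53.1% (51.5 to 54.7). Those regions had shorter outside parts, with a median of 815 bp, of which a median of 329 bp lay in single-replicate peaks. In the partly covered regions the single-replicate part was longer, with a median of 818.5 bp, but so was the part in no wild-type peak, with 1512 bp against 316 bp. In the other direction, for the 655 wild-type regions under 50% covered by *crel-2* regions, single-replicate *crel-2* peaks held at least 50% of the outside bases in 35.4% (31.9 to 39.2).

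**Figure D4:**
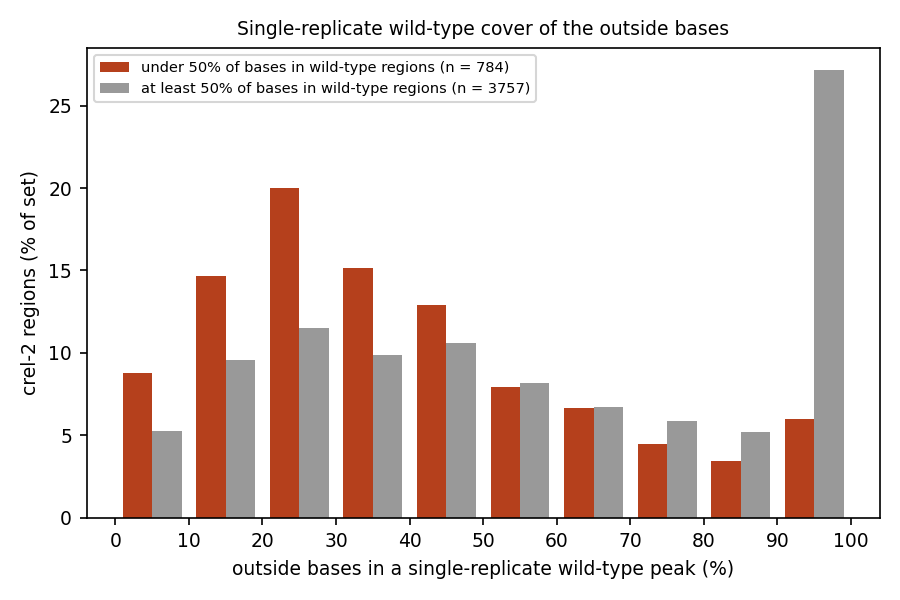
Share of the bases outside wild-type regions that lies in a peak of a single wild-type replicate (x axis, %, in steps of 10), for the 784 partly covered *crel-2* regions and for the 3757 mostly covered ones that have outside bases. Bars give the share of each set (y axis, %), and the step from 90 to 100% holds 5.99% of the partly covered and 27.1% of the mostly covered regions.

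Read by single wild-type lists, the 784 regions fell into 4 classes. In 357, or 45.5%, each wild-type list covered under 50% of the region. In 169 only replicate 1 covered at least 50%, and in 161 only replicate 2 did. In the remaining 97 each list covered at least 50%, but with bases that overlapped too little to reach 50% together. Median cover was 43.5% in replicate 1 and 42.7% in replicate 2. When peaks of either wild-type list counted, 289 of the 784 regions, or 36.9% (33.6 to 40.3), still had under 50% of their bases in wild-type peaks. The 495 others would be called mostly covered.

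**Figure D5:**
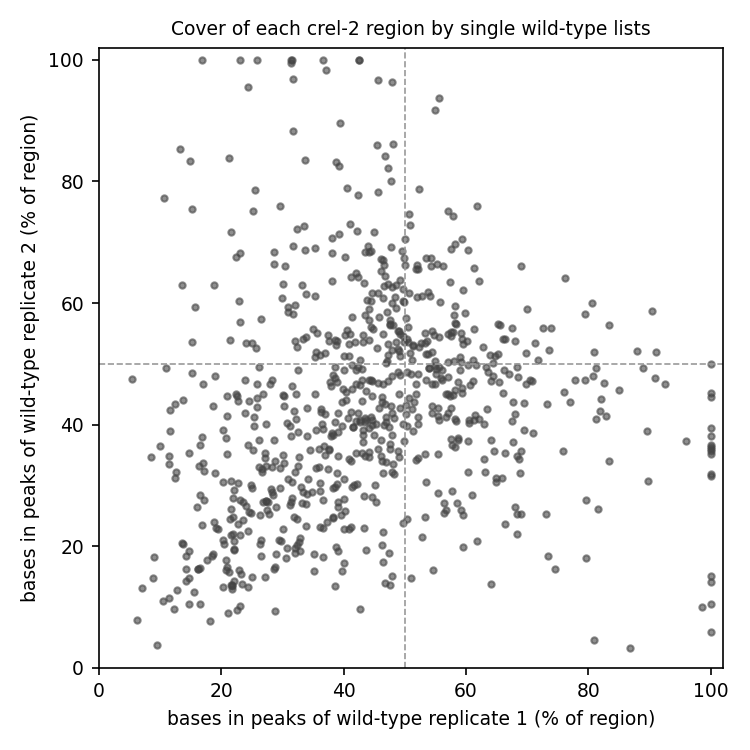
Share of each of the 784 *crel-2* regions that lies in peaks of wild-type replicate 1 (x axis, %) and of wild-type replicate 2 (y axis, %). Each point is a region and the dashed lines mark 50%; 357 regions lie below both lines, 97 above both, and 169 and 161 above one line only.

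Stretches without any wild-type peak were rarely as long as 5 kb. The longest such stretch of a region had a median of 1033 bp. It was at least 1 kb in 406 regions, or 51.8%, and at least 5 kb in 16, or 2.04%. Stretches of at least 5 kb, such as the filled gap on chromosome 1 and the flank on chromosome 7, were therefore the exception. Region size limits this count, since all outside bases of a region together had a 90th percentile of 5347 bp. The *crel-2* replicates placed the extended peaks with different reach, with a median span of 3666 bp in replicate 1 and 4121 bp in replicate 2 at the same regions.

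The partly covered regions lay on all 12 chromosomes. Their share of the *crel-2* regions that touch wild type ran from 8.58% on chromosome 6 (43 of 501, 95% Wilson interval 6.43 to 11.4) to 16.9% on chromosome 1 (130 of 771, 14.4 to 19.7). The intervals of these 2 chromosomes do not overlap, whereas those of chromosomes 2 and 12, at 13.4% and 13.6%, do overlap with that of chromosome 1. These 2 were picked as the lowest and highest of 12, and the intervals take regions as independent. A difference between chromosomes was not tested. In the central 50% of the chromosome lay 367 of the 784, or 46.8% (43.3 to 50.3), against 37.4% (36.1 to 38.7) of the mostly covered regions and 47.7% (45.36 to 49.98) of those that touch no wild-type region. The share was higher for partly than for mostly covered regions on 9 of 12 chromosomes, with chromosomes 3, 5 and 8 as the exceptions. It was 96.8% against 64.0% on chromosome 2 and 80% against 61.3% on chromosome 12. On chromosome 11, counted among the 9, the shares were nearly equal at 28.3% and 27.8%. Of all wild-type regions, 28.3% lay in the central 50%. Partly covered regions in the central part were shorter, with a median of 2153 bp outside wild-type regions against 2602 bp in the outer parts, and the median share of single-replicate cover was 35.8% and 33.7%.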

How the data were processed

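H3K27me3 ChIP-seq peak lists of 2 wild-type and 2 *crel-2* replicates were used. Per the study's methods the authors mapped reads with Bowtie2, removed reads of low mapping quality and PCR duplicates with Samtools, and ran HOMER on each replicate on its own to call peaks. The methods also mention scaling to the lowest read depth, without saying whether the deposited peaks came from scaled reads. Read numbers per ChIP replicate are given in the study's supplement and were not used here. The deposited lists hold 3 columns (sequence name, start, end). The methods name build SL3.0, but the lists carry SL2.40 names; settings of the peak caller are not given in the sources used here. The table of RNA-seq results, which holds the authors' own comparison by gene, has no positions and was not used.

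Peaks were intersected within each genotype (at least 1 bp), and bedtools 2.31.1 returned the same intervals. Bases were then assigned by Python 3.11.15 code. That code recovered class, lengths and cover of all 720 planted regions in simulated lists. Positions are printed 1-based. Unplaced sequence was left out. Of the 784 regions, 151 were cut from a *crel-2* peak that holds another *crel-2* region, so regions are not independent. Replicate numbers come from the labels, which do not say whether replicates are separate plants. No test between genotypes was made. The regions and the measures were chosen with earlier results of these data known. Regions described singly are that with the most outside bases on each chromosome and the 3 with the longest stretch in no wild-type peak. Also described are the 2 nearest to the threshold on either side, and 2 picked by the number of wild-type regions touched. Of these last 2, 1 touches 5 and the other is 1 of 10 that touch 4. Alternatives covered the threshold, the overlap, width, joining of regions, unplaced sequence and each replicate left out.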

Additional observations from a re-analysis of the deposited data

How the results depend on the processing

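The number of partly covered regions, 784, followed the threshold, with 289 at 25% and 1913 at 75% of bases. The other settings left it within 1.5 times, and leaving out 1 replicate gave 665 to 975. The median outside length, 2363 bp, was 2786 bp at the threshold of 25%, 1997 bp at 75%, 1948 bp when any wild-type peak counted, 2892 bp with the whole merged span of overlapping *crel-2* peaks, and 2134 to 2713 bp with a replicate left out. The share extended on 1 side, 12.5%, was 24.96% when any wild-type peak counted, 9.30% among regions of at least 1000 bp, 5.10% with whole merged *crel-2* spans, and 9.33 to 21.1% with a replicate left out. It was 19.4% without wild-type replicate 1 and 21.1% without wild-type replicate 2, both more than 1.5 times the value with both. The share with at least 50% of outside bases in single-replicate wild-type peaks, 28.4%, was 33.3% at the threshold of 75%, 19.6% with merged *crel-2* spans, and 23.8 to 28.5% with a *crel-2* replicate left out. It has no value where a wild-type list is left out or both are pooled. Of the 557 regions called when any wild-type peak counted, 289 were among the 784. The causes were not tested. No paired analysis was possible because the results come from no test. The lists give no depth, which limits what a missing wild-type peak shows.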

Other observations

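The changes in *crel-2* found near the partly covered regions are set beside those near the mostly covered ones. A wild-type region that no *crel-2* region touched (a lost region) lay within 5 kb of 29 of the 784 partly covered regions, or 3.70% (95% Wilson interval 2.59 to 5.26), and of 698 of the 5437 mostly covered ones, or 12.8% (11.98 to 13.75). The order was the same in the central 50% of the chromosomes, at 2.18% (1.11 to 4.24) and 7.62% (6.55 to 8.86), and in the outer parts, at 5.04% (3.32 to 7.58) and 16.0% (14.8 to 17.2). Any wild-type region other than those touched lay within 5 kb of 40.7% (37.3 to 44.2) and 45.8% (44.5 to 47.1), which is a smaller difference in the same direction. Its part in the difference for lost regions was not tested. Around the 1798 *crel-2* regions that touch no wild-type region, a lost region lay within 5 kb in 6.01% (5.00 to 7.20).

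Gained *crel-2* regions, which touch no wild-type region, were found nearby in a larger share of the partly covered than of the mostly covered regions. Some gained regions do touch a peak of a single wild-type replicate. With peaks of either wild-type replicate counted, 6749 *crel-2* regions touched wild type, against 6221 that touched a wild-type region. The gained regions are also not the same set as the study's *crel*-gained sites. A gained region lay within 5 kb of 167 partly covered regions, or 21.3% (18.6 to 24.3), and of 11.9% (11.1 to 12.8) of the mostly covered ones. Another partly covered region lay within 5 kb of 96 of the 784, or 12.2% (10.1 to 14.7), and a partly covered region lay within 5 kb of 5.79% (5.203 to 6.446) of the mostly covered ones. Neither was particular to the partly covered regions, since around the *crel-2* regions that touch no wild-type region the shares were 25.6% (23.7 to 27.7) for another gained region and 10.5% (9.18 to 12.01) for a partly covered one. These intervals cover counting error and treat regions as independent, although some are cut from the same *crel-2* peak, and no test was made. A nearby region can be another piece of the same *crel-2* peak. Of the 784, 151 regions, or 19.3%, were cut from a peak that holds another *crel-2* region. This share was not measured for the other sets, and its part in these differences was not tested. The measures were chosen after other results of these data had been seen.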
